A study of Mus musculus with 6 samples.

Results

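Mitochondrial ribosomal proteins make up the protein part of the ribosome that works inside mitochondria, and their genes were followed here in mouse skin with a knockout of the transcription factor Sox4. The members were all genes with a symbol beginning Mrpl (named for the large subunit) or Mrps (named for the small subunit) and a number. In the subunit counts Mrps18a and Mrps30 were placed in the large subunit, and Mrps36 in neither. Of all non-control probes on the array, 100 named such a gene, for 78 genes in all. Signal stood above background on every array of KO or of WT for 77 of them, among 22823 genes and unnamed transcripts tested. Skin of 3 male mice in which Sox4 was knocked out conditionally in that tissue (KO), aged 17, 18 and 16 weeks in replicates 1, 2 and 3, was set against skin of 3 male wild-type mice (WT), aged 20, 19 and 18 weeks. All mice were described as untreated and in telogen, when hair follicles rest, and had a mixed C57Bl6/129Sv background (75:25). The labels name neither the promoter that drives the recombinase nor the cells it reaches. Differing ages within each group mark the arrays as different animals, and p-values measure the spread between these few animals only.

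As background, mitochondria keep a small genome that encodes a handful of respiratory chain subunits, and the mitochondrial ribosome translates them. Its RNAs come from that genome, while its proteins are encoded in the nucleus, made in the cytosol and imported. Some have a counterpart in the bacterial ribosome and others arose later in evolution. Skin is a mixture of keratinocytes, fibroblasts, fat, hair follicle and thin muscle layers, so a bulk signal is a weighted sum over cell types, and fewer cells of a type and less RNA per cell cannot be told apart.

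The genes lay on 17 chromosomes, and many start close to a gene read in the opposite direction. RefSeq start sites of assembly GRCm38.p6 were found for 69 of the 78 genes, all but Mrpl4, Mrpl13, Mrpl15, Mrpl19, Mrpl38, Mrpl54, Mrps28, Mrps34 and Mrps35. A protein-coding gene on the other strand started within 1000 bases of the member's start, reading away from it, for 24 of 69 members (34.8%), against 1483 of 17492 protein-coding genes (8.48%). To show these shared stretches, the RefSeq sequence between the starts of 4 such pairs is printed, each from the named member's partner toward the member, 5′ to 3′ on the member's strand. For the members with the most positive and the most negative difference in KO skin, Mrpl42 and Mrps6, the 250 bases before the start are shown. Capitals mark CCGGAAG on either strand, a core of sites for ETS factors such as the GABP complex, which is known for promoters of mitochondrial genes.
Mrpl42, chr10:95501950-95502199, minus strand: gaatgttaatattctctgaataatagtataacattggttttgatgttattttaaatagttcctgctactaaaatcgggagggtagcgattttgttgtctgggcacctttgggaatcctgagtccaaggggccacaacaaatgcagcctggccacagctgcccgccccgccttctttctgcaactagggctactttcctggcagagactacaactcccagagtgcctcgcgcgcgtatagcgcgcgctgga
Mrps6, chr16:92058086-92058335, plus strand: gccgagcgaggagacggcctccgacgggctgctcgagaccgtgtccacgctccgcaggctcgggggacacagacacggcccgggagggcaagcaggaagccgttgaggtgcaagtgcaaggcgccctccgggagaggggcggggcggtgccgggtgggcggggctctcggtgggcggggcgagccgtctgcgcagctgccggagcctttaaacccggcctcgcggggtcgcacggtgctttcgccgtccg
Mrps11 with Mrpl46, chr7:78783090-78783130, plus strand: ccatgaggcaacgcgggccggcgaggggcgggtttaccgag
Mrps12 with Sars2, chr7:28741822-28741967, minus strand: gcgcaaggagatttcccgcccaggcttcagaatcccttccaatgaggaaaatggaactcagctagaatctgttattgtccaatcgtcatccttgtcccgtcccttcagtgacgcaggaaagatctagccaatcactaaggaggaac
Mrpl43 with Twnk, chr19:45006443-45006557, minus strand: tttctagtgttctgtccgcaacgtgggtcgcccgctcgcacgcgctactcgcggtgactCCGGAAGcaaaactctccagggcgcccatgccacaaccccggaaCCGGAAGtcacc
Mrps27 with Ptcd2, chr13:99344679-99344785, plus strand: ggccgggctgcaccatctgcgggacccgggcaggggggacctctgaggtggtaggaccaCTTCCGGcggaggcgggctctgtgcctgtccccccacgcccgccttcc

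Mrps11 and Mrpl46 are a small and a large subunit gene that leave from the same 41 bases. Sars2 is the mitochondrial serine tRNA synthetase, Twnk the helicase of mitochondrial DNA and Ptcd2 a mitochondrial RNA-processing protein. These 4 pairs were picked because both genes act in mitochondria, which does not hold for many of the other partners, such as Klc4, a chain of the motor protein kinesin, beside Mrpl2 and the histone chaperone Hira beside Mrpl40. In the Mrpl43 stretch the ETS letters begin 56 and 12 bases before the start, and in the Mrps27 stretch 48 bases before it. The other 4 printed stretches hold none.

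Over all members, 75 promoter windows of 300 bases (250 before and 50 after a start) were searched on both strands for 5 motifs, none of which contains another. CCGGAAG was in 34.7% of the members' windows, against 11.6% of 21263 windows of protein-coding genes. ATGGCGG, part of the site of YY1, was in 17.3% against 5.25%, and GCATGCG, the core of the site of NRF1, in 10.7% against 4.44%. CACGTG, the E-box, was in 9.33% against 7.84%, but several of its 7 windows belong to the single gene Mrpl2. AACAAAG, a core bound by Sox factors, was in 2.67% of the members' windows against 5.01%. The windows had a median GC content of 58.7% against 56.3%, and a median of 21 CpG sites against 13. The 75 windows stand for 69 genes, and a gene with several starts counts more than once. The shares describe letters in the windows, not genes, and were not tested.

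Skin identity and the knockout were checked first. All 7 basal keratinocyte markers were well above background on all 6 arrays. The brighter Sox4 probe read 78.7, 69.0 and 59.5 signal units in KO, against 503.7, 764.2 and 735.2 units in WT, a log2 difference of −3.56 (SE 0.13, limma adjusted p = 0.00135). The labels do not say which part of the gene was deleted, so this probe may or may not lie in it. Between 52.1% and 66.4% of probes stood above background. The 3 KO arrays lay on slides 2, 3 and 1 in replicate order, and the WT arrays on slides 1, 2 and 2. RNA integrity numbers spanned 6.5 to 8.5 over the samples.

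The mitochondrial ribosomal protein genes as a group sat at nearly the same level in KO and WT skin. Values are log2 processed signal minus the 75th percentile of the array, and differences are KO minus WT. None of the 77 passed the adjusted threshold of 0.05, beside 0.0219% of all genes tested (5 genes), and their smallest adjusted p was 0.313. Unadjusted p was under 0.05 for 3 members, all with positive differences (3.90% of the members, against 11.8% of all genes in either direction, 6.26% higher and 5.50% lower in KO). The median difference was 0.03, with the middle of the distribution between −0.05 and 0.11 and the extremes at −0.43 and 0.45. Over all genes the median was −0.08. The sign was positive for 42 members and negative for 35, against 35.9% positive over all genes, and 54 were positive when arrays were centred on their medians instead.

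**Figure D1:**
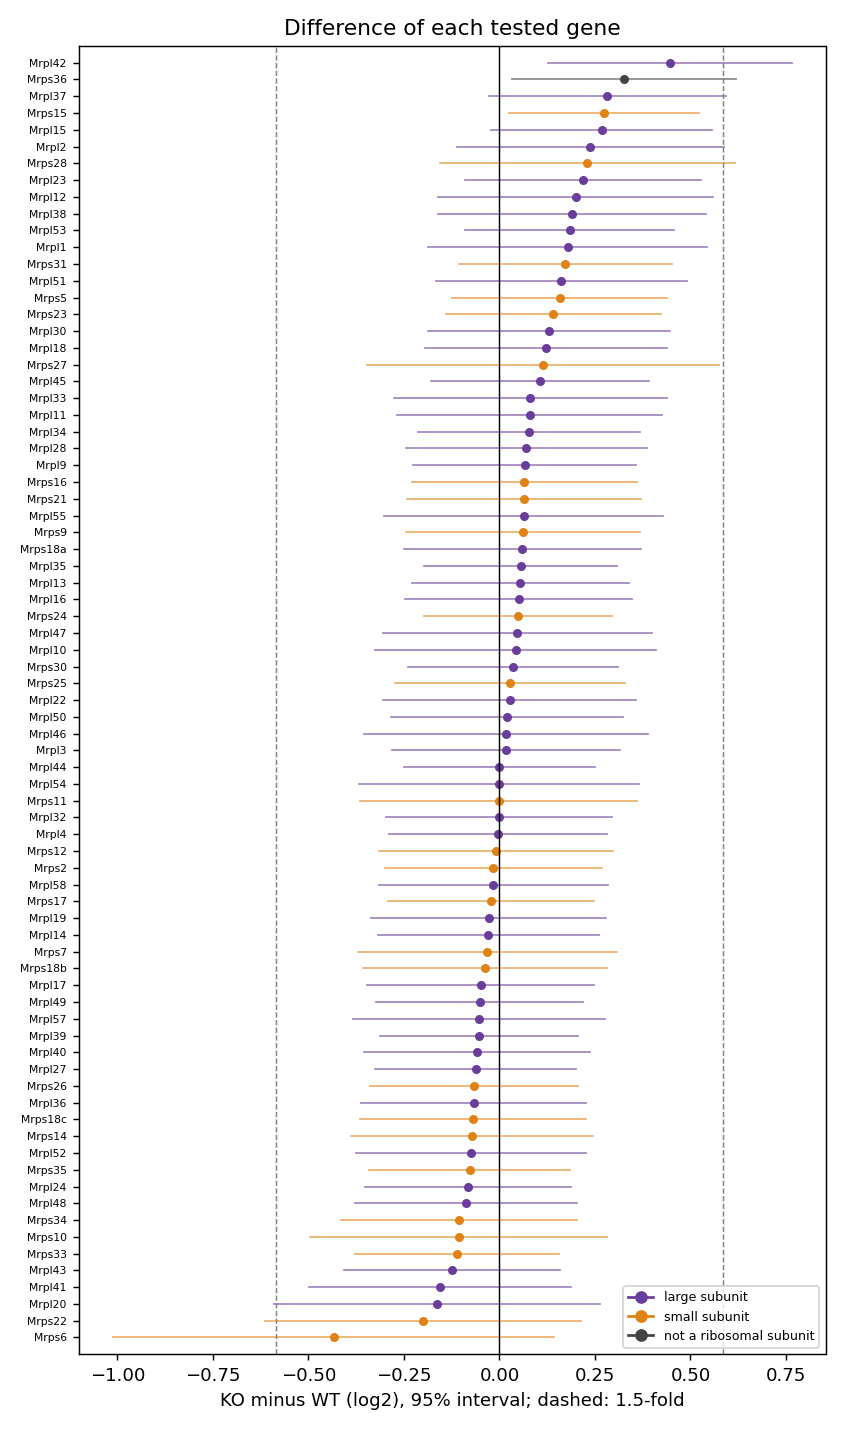
KO minus WT difference of each of the 77 tested genes on the log2 axis (points) with its moderated 95% interval (lines), ordered by size and coloured by ribosomal subunit; dashed lines mark 1.5-fold. The points run from −0.43 for Mrps6 to 0.45 for Mrpl42, and 69 of the 77 intervals lie inside the dashed lines.

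Close values came with narrow intervals. The 95% interval of the difference, from the moderated error of the fit, lay wholly within 1.5-fold for 69 of 77 members (89.6%), against 49.6% of all genes. Within 2-fold it lay for 76 of 77, the exception being Mrps6. The difference itself was under 0.2 log2 units in either direction for 67 members (87.0%), against 53.8% of all genes. The median spread between arrays of a group was 0.12 log2 units for the members, against 0.20 over all genes, and the median size of the difference, 0.07, was smaller than that spread. Narrow intervals were not particular to the members. Cytosolic ribosomal protein genes had a median spread of 0.12, with 86.25% of intervals within 1.5-fold. Nuclear respiratory chain genes had 0.16 and 36.9%.

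In 8 of 77 members (10.4%) KO and WT values did not overlap, beside 19.3% of all genes in either direction. All 8 were higher in KO, where 7.56% of all genes were, and 0 were lower, where 11.8% of all genes were, but centring on array medians gave 3 higher and 0 lower, quantile normalization 13 higher and 1 lower, and normexp background correction before it 15 and 3. Over all genes these settings left 14.4%, 20.0% and 19.0% without overlap in either direction. The count also rested on single arrays: it was 22 without KO replicate 1, 14 without KO replicate 3, 20 without WT replicate 1 (8 higher and 12 lower) and 17 without WT replicate 2. Fewer arrays separate more easily, and over all genes the shares in these fits ran from 26.6% to 40.9%.

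Of the large subunit, 50 genes were tested. Of these 30 were positive, with a median of 0.04, and 6 lay above all WT arrays, where 7.56% of all genes did. Mrpl42, a large subunit protein without a bacterial counterpart, had the largest difference of all members. Its probe read 2075, 2080 and 1750 signal units in KO, against 1137, 1303 and 1076 units in WT. On the scaled log2 axis these are 1.78, 2.03 and 1.83 in KO, against 1.58, 1.42 and 1.30 in WT. Every KO array lay above every WT array, with KO replicate 2 highest and WT replicate 3 lowest. The difference was 0.45 (SE 0.13, 95% interval 0.13 to 0.76, 1.36-fold), with an unadjusted p of 0.0137 and a limma adjusted p of 0.313. Over the 20 alternatives it ran from 0.18 to 0.69. As the groups did not overlap, leaving arrays out, blocking by replicate number or comparing within slides could not turn its sign. The smallest limma adjusted p was 0.196, and the within-slide differences had none.

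Mrpl37, which also lacks a bacterial counterpart, read 0.39, 0.48 and 0.33 in KO, against 0.10, 0.29 and −0.04 in WT. Its difference was 0.28 (SE 0.13, adjusted p = 0.451), and the groups did not overlap, with WT replicate 2 closest to KO. Mrpl15, a protein of the large subunit core with a bacterial counterpart, read 2.18, 2.29 and 2.03 in KO, against 1.85, 1.99 and 1.86 in WT. The difference was 0.27 (adjusted p = 0.449), and KO replicate 3 lay only just above WT replicate 2. A dimmer probe of the same gene pointed the other way, at −0.02, −0.06 and 0.01 in KO, against −0.02, 0.41 and 0.34 in WT, a difference of −0.26. The gene's direction is therefore not settled by these probes.

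The remaining large subunit genes without overlap were Mrpl23, Mrpl2 and Mrpl53. Mrpl23, whose counterpart sits beside the tunnel through which the new protein leaves, read 4.46, 4.80 and 4.59 in KO, against 4.33, 4.45 and 4.42 in WT. Mrpl2, whose counterpart supports the centre where peptide bonds form, read 3.93, 4.35 and 3.98 in KO, against 3.91, 3.83 and 3.80 in WT. Mrpl53, specific to mitochondria, read 3.63, 3.77 and 3.63 in KO, against 3.45, 3.60 and 3.42 in WT. Gaps between the nearest KO and WT arrays were small in all 3, and KO replicate 2 was the highest of the 6 arrays each time. The differences were 0.22, 0.24 and 0.18, with adjusted p of 0.527, 0.534 and 0.536. One pseudogene is named after Mrpl23, and its transcripts, if any, could share a probe.

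At the negative end of the large subunit were Mrpl20 and Mrpl41. Mrpl20, a protein with a bacterial counterpart that binds large subunit RNA, read 4.40, 4.56 and 4.40 in KO, against 4.29, 4.92 and 4.64 in WT. The difference was −0.16 (SE 0.18, adjusted p = 0.687), and WT replicate 1 was the lowest of the 6 arrays, so the groups overlapped. Mrpl41 differed by −0.15 on the brighter and 0.15 on the dimmer of its probes. Mrpl33, Mrpl52 and Mrpl14, with bright probes, differed by 0.08, −0.07 and −0.03, each with overlap. Mrpl1 and Mrpl35, with dim probes, differed by 0.18 and 0.06. Mrpl21 could not be tested: its probe was above background on 0 of 6 arrays, at 6.56, 6.33 and 5.13 units in KO and 4.11, 8.97 and 4.09 units in WT.

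Of 26 small subunit genes, 11 were positive, with a median of −0.01, and 1 lay above all WT arrays, where 7.56% of all genes did. That gene was Mrps15, a protein with a bacterial counterpart that binds small subunit RNA. It read 2.10, 2.23 and 2.16 in KO, against 1.87, 1.92 and 1.87 in WT. All KO arrays stood clear of WT, and the spread within each group was narrow (SD 0.06 in KO and 0.03 in WT). The difference was 0.27 (SE 0.10, 95% interval 0.02 to 0.52, adjusted p = 0.395). Over the 20 alternatives it ran from 0.20 to 0.31.

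Mrps28, Mrps31 and Mrps5 had positive differences of 0.23, 0.17 and 0.16 with overlap and adjusted p of 0.554 or more. In each of them WT replicate 2 reached or passed the lowest KO array. Mrps22, a mitochondria-specific protein, differed by −0.20 (SE 0.17, adjusted p = 0.623). Its values were 0.70, 0.87 and 0.85 in KO, against 0.78, 1.34 and 0.91 in WT, and WT replicate 2 stood apart upward. Mrps7, whose counterpart starts assembly of one domain of the small subunit, differed by −0.03 on its brighter probe. On its dimmer probe it read 0.23, 0.29 and 0.20 in KO, against 0.80, 1.16 and 0.28 in WT, a difference of −0.51, with WT replicates 1 and 2 apart from the other 4 arrays.

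Mrps6 had the most negative difference and the widest spread of all members. It read 2.47, 2.43 and 2.35 in KO, against 2.40, 3.36 and 2.79 in WT. The KO arrays lay close together, while the WT arrays ran over almost a full log2 unit and WT replicate 1 lay among the KO values. The difference was −0.43 (SE 0.24, 95% interval −1.01 to 0.14, adjusted p = 0.505). It was −0.05 within slide 1 and −0.61 within slide 2, and over the 20 alternatives it ran from −0.66 to 0.11. The RefSeq start of Slc5a3, a myo-inositol transporter, lies on the same strand 14 bases before that of Mrps6, inside the Mrps6 stretch printed above. Slc5a3, chosen after its values were seen, read −1.52, −2.13 and −1.66 in KO, against −1.31, 0.06 and −0.78 in WT. All KO arrays lay below all WT arrays, with WT replicate 1 again nearest to KO (difference −1.09, SE 0.36, adjusted p = 0.346).

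Mrps36 carries a small subunit name but is now known as a subunit of the 2-oxoglutarate dehydrogenase complex of the citric acid cycle, where it anchors one enzyme to the core. It was counted as a member by its symbol and left out of the subunit counts. It read 3.23, 3.36 and 3.37 in KO, against 3.05, 3.09 and 2.84 in WT, with no overlap (difference 0.33, SE 0.12, adjusted p = 0.393). A second probe differed by 0.21, and 3 pseudogenes are named after the gene, which may share its probes. The 3 classical enzymes of that complex were chosen after their values were seen, so they are no test of a shared change. They lay above all WT arrays, where 7.56% of all genes did and 44 of 84 nuclear respiratory chain genes. The differences were 0.54 for Ogdh (adjusted p = 0.284), 0.33 for Dlst (adjusted p = 0.475) and 0.28 for Dld (adjusted p = 0.450).

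**Figure D2:**
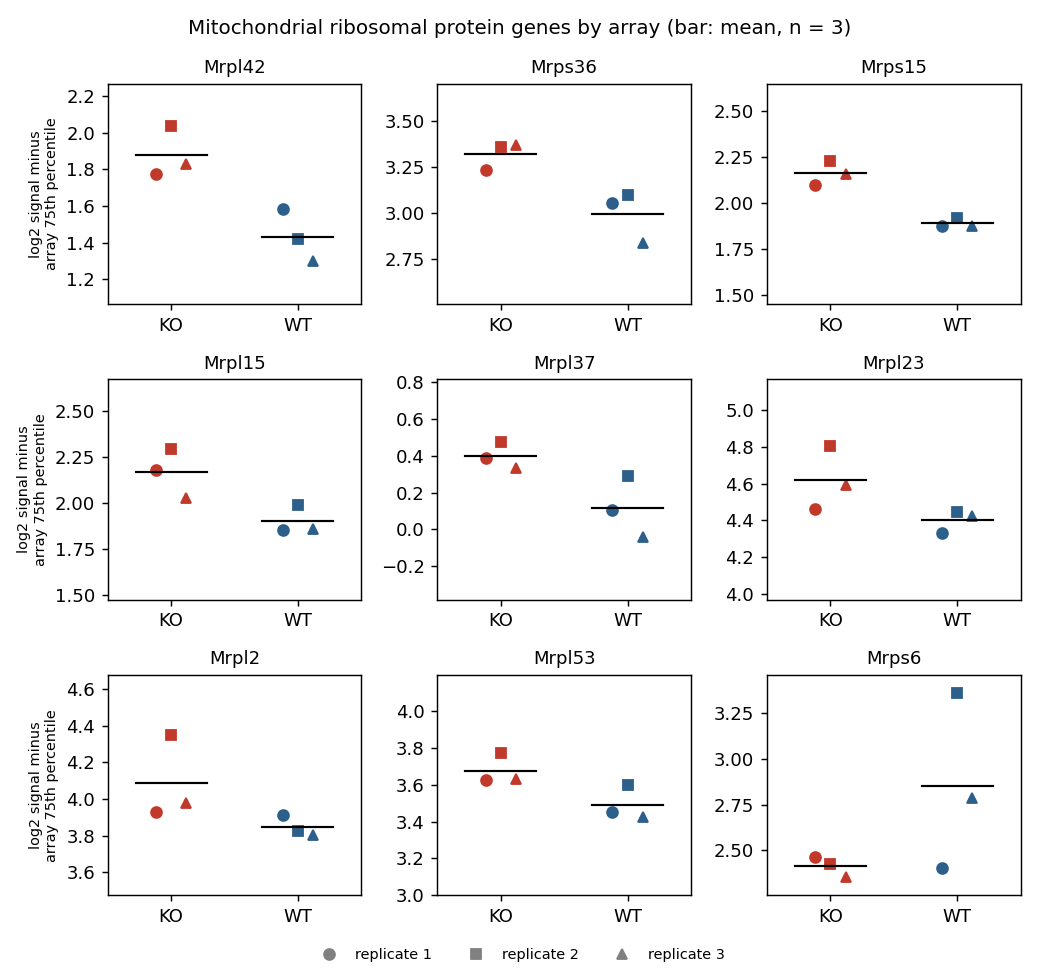
Log2 signal minus the array's 75th percentile (vertical axis, one scale per gene) on each array for the 8 members without overlap and for Mrps6, KO left of WT; points are arrays with a symbol per replicate and bars are means of 3. KO replicate 2 (square) is the highest KO array in 7 of the 9 panels, and WT replicate 1 of Mrps6, at 2.40, sits among the KO values of 2.35 to 2.47.

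The Mrps18 family has 3 paralogs of 1 bacterial protein, which take different places in the ribosome: Mrps18a in the large subunit, and Mrps18b and Mrps18c in the small. They differed by 0.06, −0.04 and −0.07, with overlap in each. Genes with a bacterial counterpart (44 tested) had a median of 0.05 with 26 positive, and those without one (32 tested) a median of 0.00 with 15 positive. In these counts Mrps18c was taken as having a counterpart, and Mrps18a and Mrps18b as lacking one. Probes of one gene disagreed in sign for 9 of the 22 members with more than 1 probe above background, namely Mrpl15, Mrpl27, Mrpl41, Mrpl47, Mrpl50, Mrps14, Mrps17, Mrps18b and Mrps2. They stood more than 0.3 log2 units apart for 3 members, Mrpl15, Mrpl41 and Mrps7.

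Most members shared their high and low arrays within each genotype. Against each gene's own mean over 6 arrays, the median member lay at −0.08, 0.10 and 0.01 in KO replicates 1, 2 and 3, and at −0.11, 0.08 and −0.01 in the WT replicates. KO replicate 2 was the highest of the 6 arrays for 29 members and WT replicate 2 for 35. WT replicate 1 was the lowest for 37 and KO replicate 1 for 22. Both groups thus held a high and a low array. Within KO, replicate 1 was lowest for 57 of 77 members, and within WT, replicate 1 was lowest for 59. Other genes shared part of this pattern. The all-gene median, taken the same way, was −0.05 for KO replicate 1 and 0.06 for WT replicate 2. Unlike the members, it was −0.06 for KO replicate 2 and 0.01 for WT replicate 1. Cytosolic ribosomal protein genes also had their lowest median on replicate 1 and their highest on replicate 2 of both groups. Nuclear respiratory chain genes likewise had replicate 1 lowest and replicate 2 highest of KO. In WT their replicate 2 was highest, though barely above replicate 1, and replicate 3 was lowest.

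**Figure D3:**
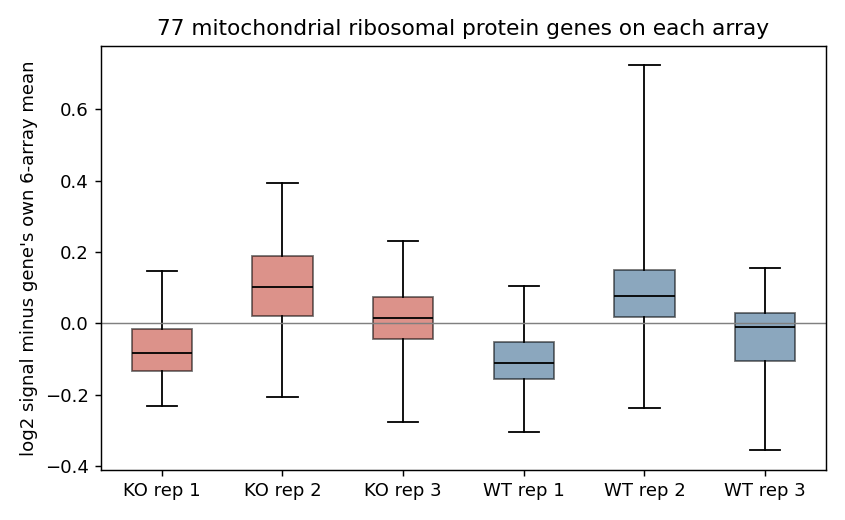
Log2 signal of the 77 genes minus each gene's own mean over the 6 arrays (vertical axis), by array, KO left of WT; boxes span the quartiles with the median as a line, and whiskers reach the lowest and highest gene. KO replicate 2 (median 0.10) and WT replicate 2 (0.08) stand high, and KO replicate 1 (−0.08) and WT replicate 1 (−0.11) low.

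The sign of the group median differed between slides. On slide 1, KO replicate 3 minus WT replicate 1 gave a median of 0.11 with 71 of 77 members positive, against 54.3% of all genes. On slide 2, KO replicate 1 minus the mean of WT replicates 2 and 3 gave −0.10 with 17 positive, against 36.2% of all genes. Positive on both slides were 17 members, against 21.2% of all genes, and negative on both were 6, against 30.7% of all genes. Mrpl42 (0.24 on slide 1 and 0.42 on slide 2), Mrps36 (0.32 and 0.27) and Mrps15 (0.29 and 0.20) were among those positive on both. That sign was fixed in advance, since every KO array of these genes lay above every WT array. KO replicate 2 was alone on slide 3. The overall median was −0.04 without WT replicate 1 and −0.03 without KO replicate 2, and 0.07 without WT replicate 2.

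**Figure D4:**
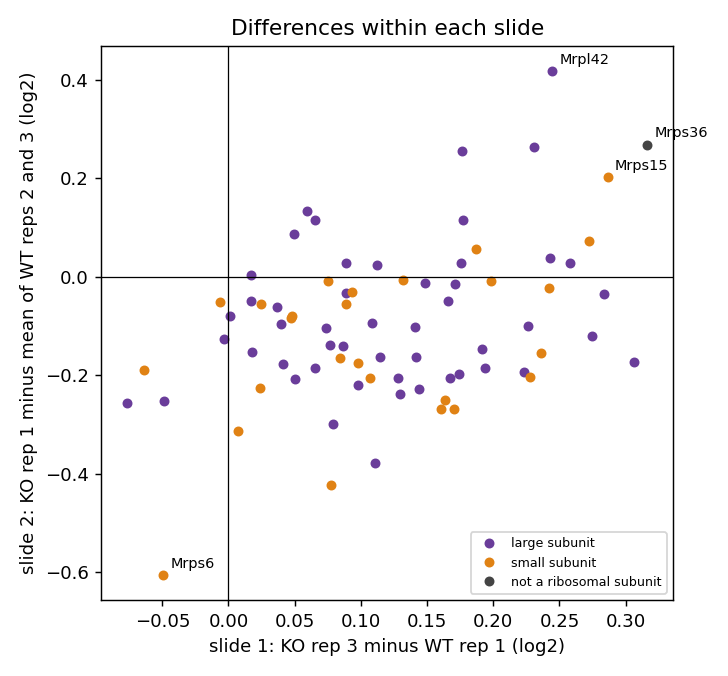
Difference KO minus WT of each of the 77 genes within slide 1 (horizontal axis, log2) and within slide 2 (vertical axis, log2), coloured by ribosomal subunit. Points fall mostly right of 0 on slide 1 (71 of 77) and below 0 on slide 2 (60 of 77), with Mrpl42, Mrps36 and Mrps15 at the upper right and Mrps6 at the lower left.

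Set beside other gene groups that build mitochondria or ribosomes, the members lay between them. Of 84 nuclear-encoded respiratory chain genes, whose products work with those made on the mitochondrial ribosome, 76 were positive, with a median of 0.28, and 44 lay above all WT arrays, where 7.56% of all genes did. Cox8b (1.67), Cycs (0.72) and Atp5g1 (0.65) had the smallest unadjusted p, each with an adjusted p of 0.274. Of 80 cytosolic ribosomal protein genes 78 were negative, with a median of −0.19, and 30 lay below all WT arrays, where 11.8% of all genes did. Their exception in size was Rpl3l, a muscle form, at 1.93 (adjusted p = 0.288). None of either list passed the adjusted threshold. The medians kept their signs in all 18 refits, from 0.17 to 0.42 for the respiratory chain and from −0.24 to −0.07 for the cytosolic ribosome, while that of the mitochondrial ribosomal proteins ran from −0.04 to 0.11. The difference between the groups of genes was not tested.

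**Figure D5:**
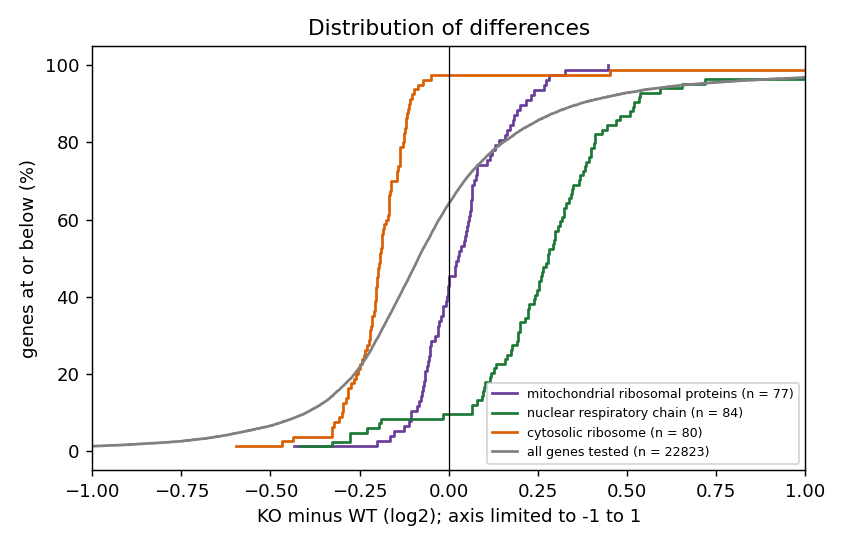
Share of genes (vertical axis, %) at or below each KO minus WT log2 difference (horizontal axis, limited to −1 to 1) for 77 mitochondrial ribosomal protein genes, 84 nuclear respiratory chain genes, 80 cytosolic ribosomal protein genes and all 22823 genes. The medians lie at 0.03, 0.28, −0.19 and −0.08 in that order, and the curve of the mitochondrial ribosomal proteins is steep around 0.

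Markers of other tissues differed between the arrays. Of 31 markers of skeletal muscle, a tissue rich in mitochondria, 28 were positive with a median of 1.80. The list's scores, medians over the markers against their WT means, were 1.58, 2.10 and 1.53 in KO, against 1.19, −0.50 and −0.68 in WT. The members' scores were −0.06, 0.11 and 0.01 in KO, against −0.08, 0.10 and −0.02 in WT. Thus WT replicate 1 had the highest muscle score of WT and the lowest score of the members. With the muscle score as a covariate, an alternative added after seeing the data, the members' median was 0.11, 66 were positive and 0 passed the threshold, while over all genes the median was −0.01 and 48.3% were positive. Hair shaft and inner root sheath markers scored 4.22, 3.65 and −0.11 in KO, against −0.12, 0.25 and −0.08 in WT. KO replicates 1 and 2 thus stood apart from the other arrays, although all mice were described as in telogen. The follicle stage of each animal was not tested. With KO replicates 1 and 2 left out, also added later, the members' median was 0.01. Of 16 T and NK cell markers, 16 were negative with a median of −1.13, and 1, Cd3g, fell past the adjusted threshold (−1.32, adjusted p = 0.0464). The medians were −0.21 for 7 basal keratinocyte, −0.24 for 10 white adipocyte, 0.58 for 8 brown adipocyte (4 positive and 4 negative, with Ucp1 not tested) and −0.03 for 16 cell cycle genes. The muscle score was higher on every KO array than on every WT array, so the fit with it cannot separate muscle from genotype. The part of these tissues in the members' values was not tested.

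Other parts of mitochondrial translation were described from lists chosen with earlier results known, and no gene of them passed the adjusted threshold. Of 15 translation factors 12 were positive, with a median of 0.13, and 4 lay above all WT arrays, where 7.56% of all genes did. Mrrf, which helps to split the ribosome after a protein is finished, read −1.71, −1.03 and −1.47 in KO, against −1.89, −2.77 and −2.57 in WT. KO replicate 1 and WT replicate 1 lay closest to each other (difference 1.01, SE 0.28, adjusted p = 0.296). Gfm2, which acts with Mrrf, read 1.49, 1.85 and 1.51 in KO, against 1.30, 1.11 and 1.01 in WT (difference 0.48, SE 0.15, adjusted p = 0.333). The elongation factor Gfm1 differed by 0.31 (adjusted p = 0.446). All 3 were separate between groups, with WT replicate 1 the nearest WT array.

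Of 5 mitochondrial ribosomal proteins with other names, 2 were positive with a median of −0.08, Ptcd3 and Chchd1 at 0.21 each and Dap3, a small subunit protein that binds GTP, at −0.19. Of 18 mitochondrial tRNA synthetases and related enzymes 11 were positive with a median of 0.05, and Hars2, for histidine, lay below all WT arrays at −0.40 (adjusted p = 0.371). Qrsl1 and Vars2 differed by 0.38 and 0.24 with overlap. Of 24 assembly factors 15 were positive with a median of 0.04. Among them Nsun4, an RNA methyltransferase of assembly, differed by 0.29 (adjusted p = 0.460), Mrm3 by 0.38 and Mtg2 by 0.17.

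Of 10 genes for mitochondrial DNA upkeep and transcription 6 were positive with a median of 0.01, and Tefm, a transcription elongation factor, differed by 0.36 (adjusted p = 0.442). Mgme1 and Polg2 differed by −0.18 and −0.14. Of 15 import and outer or inner membrane genes 9 were positive with a median of 0.10. The outer membrane channels Vdac3 and Vdac1 differed by 0.65 (adjusted p = 0.303) and 0.49 (adjusted p = 0.395), and the inner membrane organiser Immt by 0.36. Of 9 regulators of mitochondrial genes 4 were positive, with a median of −0.06. The coactivator Ppargc1a read −0.02, 0.59 and 0.31 in KO, against −0.16, −0.69 and −0.40 in WT, a difference of 0.71 (SE 0.21, adjusted p = 0.309) with no overlap. Yy1 lay below all WT arrays at −0.21 (adjusted p = 0.504), and Ppargc1b differed by 0.22 (adjusted p = 0.676).

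Genes that start back to back with a member were followed in 22 tested pairs. Their median difference was 0.02, from −0.24 to 0.31, and none passed the threshold. The sign matched that of the member in 12 of 22 pairs. For the printed pairs, Mrps11 and Mrpl46 differed by −0.00 and 0.02, Mrps12 and Sars2 by −0.01 and −0.10, Mrpl43 and Twnk by −0.12 and 0.07, and Mrps27 and Ptcd2 by 0.11 and 0.00. Of all partners 2 lay above all WT arrays, where 7.56% of all genes did. They were Ndufb5, a complex I subunit that starts beside Mrpl47, at 0.31, and Cyb5rl beside Mrpl37 at 0.15.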

How the data were processed

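Labelled RNA from 6 skin samples was hybridised to 1-colour Agilent arrays of 62976 spots. The authors deposited scanner files of spot intensity, background-subtracted and detrended by Agilent Feature Extraction 11.5.1.1 per the file headers; arrays were not normalized to each other. Flags of other kinds, coded 0 or 1 per the file headers, mark spots above background and outliers. Per the labels' protocols, RNA was extracted with Trizol, purified on a column and labelled with Cy3. The submitters' processing notes name limma, without settings. The authors also deposited a log2 value table, with column medians of 6.80. In 6 of 6 columns it followed the scanner array of the other group with the same number, so it was not used.

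Here the scanner signal was put on a log2 scale with the 75th percentile of all non-control probes of an array set to 0, averaging unflagged spots; 31 of 55681 probes without an unflagged spot were left out. Accessions were named through a RefSeq table of GRCm38.p6; the array grid refers to mm9, so coordinates are those of GRCm38.p6 start sites and not of probes. A probe was kept if it stood above background on every array of KO or of WT, and the brightest kept probe of a gene stood for it. The comparison used R 4.3.3 and limma 3.58.1, fitting 22823 genes with lmFit and eBayes, without covariates, two-sided, p-values being adjusted by Benjamini-Hochberg and read at 0.05. The fit was tested on simulated data. The number of arrays limits the precision.

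Members, lists and tests were chosen with earlier results of these data known. Named members are the 12 with the smallest p, the 3 highest and 3 lowest differences, the 3 brightest and 3 dimmest, the Mrps18 paralogs, those not above background and those whose probes differ in sign; of other lists, the 3 with the smallest p. Exceptions are stated. Over all genes, deviations of same-numbered KO and WT arrays correlated at −0.13, −0.04 and 0.08, so the numbers were not taken as pairs, although the median member lay lowest in replicate 1 and highest in replicate 2 of both groups. Alternatives covered scaling, background correction, filter, probe choice, slide, age and single arrays. For normexp the median signal stood in for the planned mean signal, which the scanner files used here do not carry.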

Additional observations from a re-analysis of the deposited data

How the results depend on the processing

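None of the mitochondrial ribosomal protein genes passed the adjusted threshold under any of the 18 refits, and no named member turned sign with a call. The count of all genes called (5) was 15 with arrays centred on the median, 11 with quantile normalization, 8 with normexp and quantile normalization, 2 with no filter on dim probes, 9 with probes above background on all 6 arrays, 1 with slide as a fixed block, 15 with slide as a random block, 0 with the replicate number as a block (1 member at an unadjusted p under 0.05), and 141 with age as a covariate. With 1 array of each group per number, that block cannot move a difference, and there was no call among the members for it to end. No KO mouse was older than any WT mouse, so the fit with age as a covariate cannot cleanly separate age from genotype. With 1 array left out the count of genes called ran from 2 to 303. Added later, the skeletal muscle score as a covariate gave 0 (1.49% of genes higher and 1.66% lower at an unadjusted p under 0.05), as did leaving out KO replicates 1 and 2 (2.36% and 2.10%), where the lone KO array is assumed to vary like WT. The 8 members without overlap (all genes 19.3%) were 3 with arrays centred on the median (14.4%), 14 with quantile normalization (20.0%), 18 with normexp before it (19.0%), 9 to 22 with 1 array left out (25.0% to 40.9%), and 30 without KO replicates 1 and 2 (49.1%). The members' median of 0.03 moved beyond the spread of its scores only within slide 2, to −0.10; with 1 array left out it ran from −0.04 to 0.07, and with slide as a fixed block it was −0.02. The causes were not tested. Dim probes and 3 arrays per group limit what could be detected.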
